A study of Homo sapiens with 4 samples.

Results

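The loci described here are the copies of 3 small non-coding RNAs, 7SK, Y RNA and signal recognition particle (SRP) RNA, in LNCaP, an established human prostate cancer cell line from a lymph node metastasis. They were chosen by biotype and measured level: the files give each of them the biotype misc_RNA in at least 1 library and the status OK in all 4, and at least 2 libraries reach 1 FPKM. FPKM is the number of fragments per kilobase of transcript, scaled by the authors to the fragments mapped in the library. The rule gave 173 loci of the 10091 tested in all, and of the 2030 misc_RNA loci listed in all 4 libraries. By symbol, 97 were Y RNA loci (Y_RNA or RNY), 71 SRP RNA loci (Metazoa_SRP or RN7SL), 4 were 7SK loci (7SK or RN7SK) and 1 was a vault RNA copy. The loci were thus selected on FPKM in the same 4 libraries, so their levels near the threshold are a description only.

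Cells at passage 22 were transfected with 2500 ng of plasmid and 12 µL of a lipid reagent in medium with 10% serum, and, per the labels' protocols, total RNA was extracted 48 h later. The control group (n = 2 libraries) received the empty vector, and the other group (n = 2) the same type of vector carrying CRYM, the gene of mu-crystallin, which binds thyroid hormone in the cytosol. Both groups therefore share the transfection and the vector, which is a transient one with a GFP readout in a single cell line. Whether the biological replicates of the labels were separate cultures is not stated, so a p-value measures the spread between these libraries only. In bulk RNA, fewer cells with a transcript and less of it per cell cannot be told apart. The question asked of these loci is whether their RNA differs when CRYM is overexpressed.

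All 3 RNAs are made by RNA polymerase III. 7SK holds the elongation factor P-TEFb in an inactive complex with HEXIM and LARP7 proteins, SRP RNA is the scaffold of the particle that brings ribosomes to the endoplasmic reticulum, and Y RNAs bind the Ro60 and La proteins and take part in RNA quality control and DNA replication. The genome carries a few functional genes of each and very many retrocopies, and Alu elements are themselves derived from SRP RNA. The functional transcripts have no poly(A) tail, whereas the stranded mRNA kit named in the labels' protocols selects polyadenylated RNA.

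The sequences of the loci on which the results turn are given first, from GENCODE 29 transcripts (GRCh38), 5′ to 3′. The functional 7SK gene lies between genes, and its first 120 bases are shown (chr6:52995620-52995739, plus strand). Capitals mark GATC, in RNA the GAUC word that HEXIM binds in the first stem of 7SK. The word occurs 3 times there and nowhere else in RN7SK, and 73 of the 279 other 7SK loci with a sequence (26.2%) hold at least 3.
RN7SK: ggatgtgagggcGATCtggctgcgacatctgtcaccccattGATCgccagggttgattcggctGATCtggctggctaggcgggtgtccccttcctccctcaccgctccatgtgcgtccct
RNY1 is a functional Y RNA gene between genes (chr7:148987136-148987248, minus strand), shown because it is the functional Y RNA closest to the largest number of tested Y RNA loci. The next sequences are the Y RNA copy with the highest level and those with the largest rise and the largest fall among copies with no library at 0. Capitals mark the bases that did not match the closest functional Y RNA in a global alignment. The first (chr10:17403508-17403620, plus strand) lies in an intron of ST8SIA6-AS1 and has 13 such bases against RNY1 (88.5% identity). The second (chr1:202914880-202914980, minus strand) lies in an intron of KLHL12 and has 16 against RNY3 (83.3%). The third (chr17:40391232-40391338, minus strand) lies in an intron of TOP2A and has 13 against RNY1 (82.5%). All 3 are on the strand of the gene that holds them.
RNY1: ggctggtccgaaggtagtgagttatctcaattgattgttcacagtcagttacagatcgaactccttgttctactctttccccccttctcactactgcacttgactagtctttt
Y RNA copy on chromosome 10: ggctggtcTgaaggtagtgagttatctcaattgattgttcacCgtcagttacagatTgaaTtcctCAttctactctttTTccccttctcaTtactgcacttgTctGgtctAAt
Y RNA copy on chromosome 1: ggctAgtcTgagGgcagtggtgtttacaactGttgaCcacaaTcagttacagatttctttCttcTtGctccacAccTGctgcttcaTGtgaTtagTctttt
Y RNA copy on chromosome 17: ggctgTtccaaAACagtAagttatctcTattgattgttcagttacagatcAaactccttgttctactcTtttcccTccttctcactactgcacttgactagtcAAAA

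CRYM, at an unnamed locus identified by its neighbours (hg19 chromosome 16, 21250195 to 21314404), had 0.977 to 1.17 FPKM with the empty vector and 65.3 to 72.5 with the CRYM vector. Library depth ranged from 0.842 (CRYM library 1) to 1.15 (empty vector library 2) relative to empty vector library 1. Of 10 luminal prostate markers, the files name 2 in all libraries, HOXB13 and SPDEF, with summed levels of 212.2 to 215.3 FPKM in the empty vector group and 157.1 to 162.2 in the CRYM group. In CRYM cells HOXB13 was 1.14-fold lower (limma adjusted p = 0.0275) and SPDEF 1.81-fold lower (limma adjusted p = 0.00517). Of the neuroendocrine markers, INSM1 was listed at 0 in 3 libraries, the immune marker HLA-DRA had 1.56 to 2.40 FPKM, and the endothelial marker CLDN5 had 0.136 to 0.275. No basal or fibroblast marker was named. Their part in the differences below was not tested.

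Most of the family gave no signal. Of 879 Y RNA loci in all 4 libraries, 707 were listed at 0 in each, as were 228 of 291 7SK loci and 463 of 840 SRP RNA loci. No misc_RNA locus was left out by status, and 445 had a value above 0 but did not reach the level needed for testing. The share of SRP RNA loci above 0 was 30.2% and 32.4% with the empty vector and 33.6% and 36.0% with the CRYM vector. The share of Y RNA loci above 0 was 8.08% and 10.8% against 9.10% and 11.5%, and that of 7SK loci 11.7% and 11.7% against 12.0% and 14.1%. Within each group the deeper library had a share at least as high.

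The tested loci rested on few fragments, and far fewer for Y RNA than for SRP RNA. Each deposited FPKM comes with an interval. Read as 2 SD of counting error to either side, the interval gives a number of fragments, called implied fragments here. Of 345 implied numbers under 9 at these loci, 98.0% were whole within 0.1. For thresholds on fragments, here and below, implied numbers were rounded to the nearest whole. The 97 Y RNA loci, of 77 to 149 bp, had a median of 1 fragment in each library. In 69 of them no library had more than 3, and in 30 none had more than 1. The 71 SRP RNA loci, of 235 to 312 bp, had a median of 9.59 to 17.0 fragments per library. Of all 173 loci, 33 had at least 10 fragments in every library (29 SRP RNA, 3 7SK and 1 Y RNA), and 80 had at least 1 library at 0, 77 of them Y RNA. A short locus with 1 fragment still gets a high FPKM, so the filter on FPKM admits Y RNA loci that it would not admit at the length of SRP RNA.

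**Figure D1:**
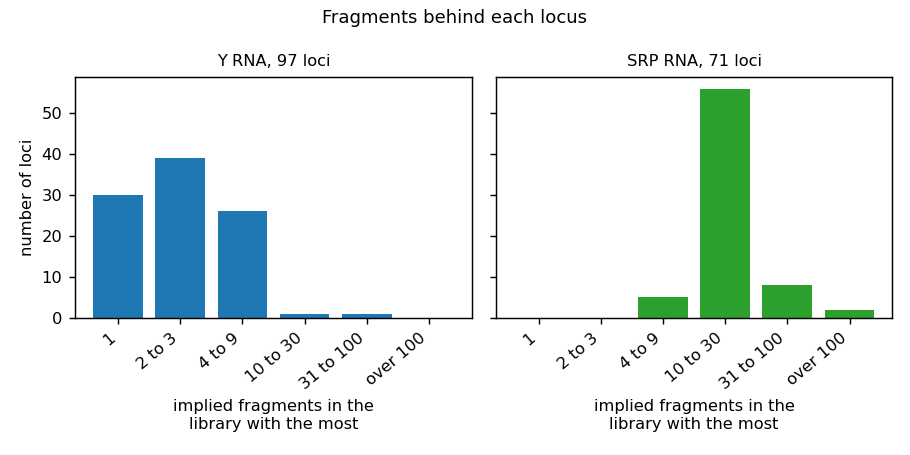
Number of Y RNA loci (left) and SRP RNA loci (right) by the implied fragments in the library where the locus had the most. In 69 of 97 Y RNA loci that number is 3 or fewer, and no SRP RNA locus is that low.

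The full-length functional RNAs varied between libraries of one group more than between the groups. RN7SK (hg19 chromosome 6, 52860418 to 52860748) had 2.46 and 0.999 FPKM with the empty vector and 1.75 and 12.3 with the CRYM vector, from 30, 14, 18 and 158 implied fragments. CRYM library 2 stood above the rest, and CRYM library 1 lay between the empty vector libraries. The log2 difference, on the log2(FPKM + 1) scale as all log2 differences here, was 1.20 (SE 0.97, limma adjusted p = 0.412). RN7SL2 (chromosome 14, 50329271 to 50329567) had 21.7 and 31.3 FPKM with the empty vector and 10.1 and 53.3 with the CRYM vector, a log2 difference of -0.14 (SE 0.94, limma adjusted p = 0.933). Its lowest and its highest value were both in the CRYM group, 5.25-fold apart.

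RN7SL1 and RMRP carry other biotypes in the files and are not among the 173, and were looked at after the values of RN7SL2 and RN7SK were seen. RN7SL1, the other main SRP RNA gene, had 28.0 and 38.7 FPKM against 11.6 and 51.8, the same order of libraries as RN7SL2. The share of 50-base windows that another misc_RNA, RN7SL1 or RMRP gene also holds was 86.5% for RN7SL2, so a 50 bp read can often not be placed between these genes, and how the authors divided such reads is not stated in the labels or headers. RMRP, the RNA of the RNase MRP particle and also a polymerase III transcript, had 2.46 and 0.724 FPKM against 0.917 and 14.0. Like RN7SK, it was high in CRYM library 2 alone. That library was 6.99-fold above CRYM library 1 for RN7SK, 4.47-fold for RN7SL1 and 15.2-fold for RMRP. The cause of this split within the CRYM group was not tested.

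**Figure D2:**
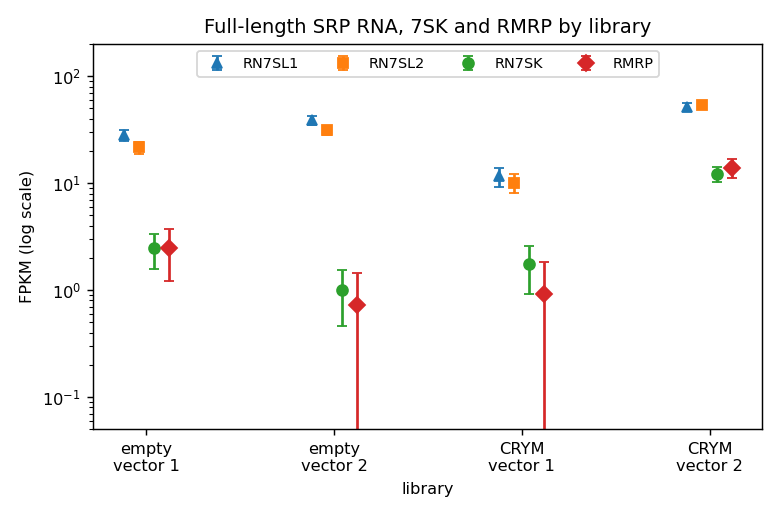
FPKM (log scale) of RN7SL1, RN7SL2, RN7SK and RMRP in each of the 4 libraries, with the deposited interval as bars (a bar that reaches the lower edge has a lower bound of 0). All 4 RNAs are highest in CRYM vector library 2, and RN7SL1 and RN7SL2 are lowest in CRYM vector library 1.

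The functional Y RNAs were at or near the limit of detection. RNY1 (chromosome 7, 148684228 to 148684340) was listed at 4.86 and 8.59 FPKM with the empty vector and at 0 and 4.73 with the CRYM vector, which is 1, 2, 0 and 1 implied fragments (limma adjusted p = 0.320). RNY3 and RNY5 were listed at 0 in all 4 libraries, and RNY4 had 1 fragment, in empty vector library 2. RN7SL3 was listed at 0 throughout, and the vault RNA VTRNA1-1 had 1 fragment, in CRYM library 2. The highest Y RNA levels in the files were therefore those of copies, not of the functional genes.

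Of the 173 loci, limma called 18 higher and 6 lower in CRYM cells at an adjusted p under 0.05, and 149 did not pass. By group, 10 Y RNA loci were higher and 5 lower, 7 SRP RNA loci were higher and 1 lower, no 7SK locus passed in either direction, and the vault copy was higher. Without the adjustment, 38 of the 173 had a p under 0.05, and so had 1 of the 4 7SK loci. Over all tested loci, limma called 15.7% higher and 17.7% lower. Over the 925 tested loci no wider than the widest of these (331 bp), it called 8.32% higher and 4.22% lower. The shares among the 173, 10.4% and 3.47%, lie near those of the short loci, which include the 173, and are no result about these RNAs. Moreover, 15 of the 24 called loci had one group with both libraries at 0, and 26 of the 173 reached the level needed for testing through 1 group only. All 24 calls were lost in the fits that leave out any 1 library, in which limma called no locus of any kind.

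The log2 difference was above 0 at 124 of the 173 loci (71.7%). It was above 0 at 576 of the 925 short loci (62.3%) and at 5201 of all 10091 tested loci (51.5%). The median log2 difference of the 173 loci was 0.27, against 0.01 over all tested loci and 0.17 over those of at most 331 bp. Both CRYM libraries lay above both empty vector libraries at 63 of the 173 and below at 12, and the groups overlapped at 98. Over all tested loci, 37.0% were above, 35.3% below and 72.2% without overlap. Over the short loci these shares were 27.4%, 11.5% and 38.8%. For SRP RNA the shares were 45.1% (32 of 71) above and 2.82% (2 of 71) below, with a median log2 difference of 0.28. For Y RNA they were 27.8% (27 of 97) above and 10 of 97 below, with a median of 0.23. That Y RNA median turned to -0.44 without empty vector library 1 and was 0.50 without empty vector library 2, 1.08 without CRYM library 1 and 0.38 without CRYM library 2. Without CRYM library 1 the median over the 173 was 0.50. Of the 71 SRP RNA loci, 56 had their highest value in a CRYM library, 18 in library 1 and 38 in library 2. The highest value was also in a CRYM library at 608 of the 925 short loci and at 5242 of all 10091 tested loci. With every library rescaled to the same total of 1000000 FPKM, far below the deposited totals, the medians turned to -0.28 over all tested loci, -0.04 over the 173, -0.10 over Y RNA and -0.03 over SRP RNA loci. At that scale the pseudocount of 1 weighs more and shrinks the differences of low loci. The total was taken over every locus that a library listed, tested or not. It was 8349133 and 7917747 FPKM with the empty vector and 12658203 and 12091877 with the CRYM vector. The tested loci summed to 526849 and 518581 FPKM against 532340 and 489781. The scaling thus rests mostly on loci outside the test. The SRP RNA median stood 0.27 above that of all tested loci, 0.25 above it with the same total, 0.12 with quantile scaling and 0.11 with a pseudocount of 5.

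**Figure D3:**
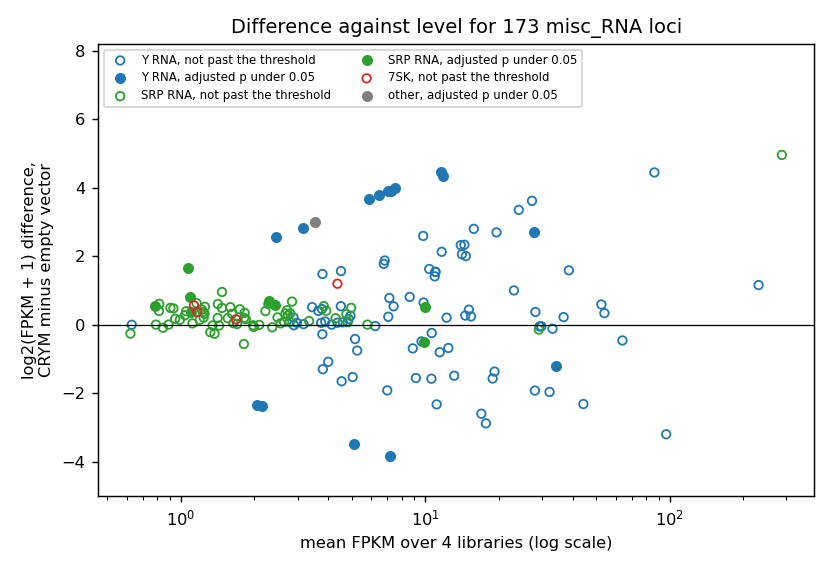
Difference in log2(FPKM + 1), CRYM minus empty vector, against mean FPKM over the 4 libraries (log scale) for the 173 loci, coloured by group, with filled points for a limma adjusted p under 0.05. Y RNA loci spread from -3.83 to 4.46, and SRP RNA loci other than RN7SL491P lie between -0.56 and 1.65, mostly above 0.

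Of the 33 loci with at least 10 fragments in every library, 29 were SRP RNA loci. RN7SL212P (chromosome 7, 75918108 to 75918371) had 8.17 and 7.91 FPKM with the empty vector and 12.7 and 11.1 with the CRYM vector, from 48.7 to 68.7 fragments. Both CRYM libraries were above both empty vector libraries. The mean was 8.04 ± 0.185 and 11.9 ± 1.18 FPKM (SD, n = 2 each), a rise of 1.48-fold and a log2 difference of 0.51 (SE 0.084, limma adjusted p = 0.0328). With the same total FPKM in every library its log2 difference was -0.02 and it did not pass. RN7SL245P (chromosome 16, 22647776 to 22648065) went the other way, with 11.6 and 11.8 FPKM against 7.85 and 8.07, from 61.1 to 147.0 fragments. The mean was 11.7 ± 0.135 and 7.96 ± 0.153 FPKM (SD, n = 2 each), a fall of 1.47-fold and a log2 difference of -0.50 (SE 0.037, limma adjusted p = 0.0104). These 2 copies, the highest apart from RN7SL2 and RN7SL491P, moved in opposite directions.

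The other SRP RNA copies past the threshold were higher in CRYM cells and lower in level. The Metazoa_SRP copy on chromosome X (133348416 to 133348694) had 1.85 and 1.67 FPKM against 2.94 and 3.28, a log2 difference of 0.57 (SE 0.079, limma adjusted p = 0.0246), from 16, 17, 21 and 30 fragments. RN7SL190P, also on X (152163780 to 152164039), had 1.33 and 1.70 against 2.77 and 3.404 (limma adjusted p = 0.0425). With the same total FPKM neither passed, with log2 differences of 0.041 (limma adjusted p = 0.231) and 0.075 (limma adjusted p = 0.194), and RN7SL190P did not pass with quantile scaling (limma adjusted p = 0.0660) or a filter on the mean (limma adjusted p = 0.0526) either. Without the filter, these 2 copies and RN7SL212P did not pass (limma adjusted p = 0.0715 to 0.104). In both, the lower CRYM library was well above the higher empty vector library. RN7SL550P (chromosome 17, 12875869 to 12876142) had 0.630 and 0.411 FPKM against 1.60 and 1.71 (limma adjusted p = 0.0233). RN7SL603P (chromosome 20, 50557083 to 50557372) had 0.498 and 0.409 against 1.19 and 1.04 (limma adjusted p = 0.0315). Their empty vector values rest on 4 to 5 fragments each. RN7SL192P (chromosome 19, 11122384 to 11122680), on the strand of SMARCA4 in one of its introns, had 0.803 and 0.838 against 1.37 and 1.40 (limma adjusted p = 0.0325). These 3 copies reached 1 FPKM in the CRYM libraries only, so they entered the test through the group where they are high, and their calls support nothing. None of the 3 passed with quantile scaling or without the filter, RN7SL603P and RN7SL192P did not pass with the same total, and with a filter on the mean RN7SL603P was not tested and RN7SL192P did not pass (limma adjusted p = 0.109).

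RN7SL262P (chromosome X, 49008986 to 49009277) was listed at 0 in both empty vector libraries and at 2.0 and 2.27 FPKM with the CRYM vector (limma adjusted p = 0.00676). Its CRYM values rest on 18 and 27 implied fragments, far more than the 1 to 3 behind each Y RNA copy with a group at 0. It too entered the test through the CRYM libraries only. No fold is given, since the empty vector group is listed at 0. RN7SL262P and RN7SL192P fall outside the rule for named loci and were singled out after their values were seen. RN7SL491P (chromosome 19, 35905787 to 35906051) had 0.846 and 0.833 FPKM with the empty vector and 1146 and 1.86 with the CRYM vector. Its value in CRYM library 1, the highest of any SRP RNA locus, has a deposited interval of 172.7 to 2118 and implies only 5.55 fragments, fewer than the 6 and 7 of the empty vector libraries. It did not pass (limma adjusted p = 0.356), and the FPKM does not follow the fragments there.

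Summed over the 69 SRP RNA loci other than RN7SL2 and RN7SL491P, the level was 131.2 and 131.7 FPKM with the empty vector and 160.4 and 177.4 with the CRYM vector. With every library rescaled to the mean total FPKM of the 4, the direction turned, to 161.2 and 170.6 against 129.97 and 150.4. Those totals, given above, rest mostly on loci outside the test and were higher in both CRYM libraries. Without any filter, the 839 SRP RNA loci other than RN7SL2 held at equal depth 1573 and 1679 implied fragments with the empty vector and 1910 and 2141 with the CRYM vector, 1.25 times as many. In fragments at equal depth, the 2 CRYM libraries stood above both empty vector libraries, which RN7SL2 itself did not (240.9 and 368.3 against 108.4 and 587.1). The 290 7SK loci other than RN7SK held 100.8 and 82.5 against 133.3 and 133.9. The 879 Y RNA loci held 166.6 and 210.2 against 259.1 and 246.3. Of other small RNA classes, the 1337 snoRNA loci held 589.3 and 569.0 against 592.2 and 609.8, and the 1908 snRNA loci 290.1 and 257.6 against 317.6 and 396.2. With 2 libraries a group, a two-sided exact permutation test of such a sum cannot give a p below 0.333, so no test of them was made.

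**Figure D4:**
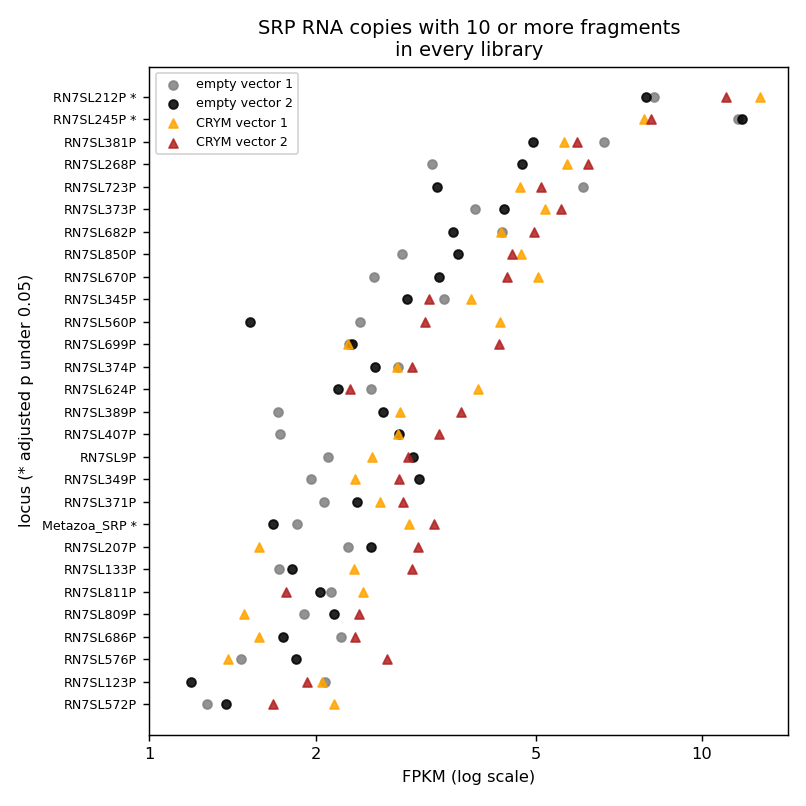
FPKM (log scale) in each library of the SRP RNA loci with at least 10 implied fragments in every library, RN7SL2 left out, ordered by mean level. Stars mark a limma adjusted p under 0.05. Both CRYM vector libraries (triangles) lie to the right of both empty vector libraries (circles) at 11 of these loci and to the left at 1, RN7SL245P. With RN7SL2 counted, these are 37.9% and 3.45% of 29 loci, against 37.0% and 35.3% over all tested loci. Over tested loci of at most 331 bp the shares are 27.4% and 11.5%.

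Among the 33 loci with at least 10 fragments in every library, 2 were called higher and 1 lower by limma, RN7SL212P, the Metazoa_SRP copy on X and RN7SL245P. Both CRYM libraries were above both empty vector libraries at 14 of the 33 and below at 1, and their median log2 difference was 0.22. Over all tested loci, 37.0% were above and 35.3% below. Over tested loci of at most 331 bp these shares were 27.4% and 11.5%, with a median log2 difference of 0.17. The median of the 33 was 0.080 with quantile scaling and turned to -0.048 with the same total. This set was chosen after the values were seen. It holds 1 Y RNA copy, so nearly all that is said of Y RNA below rests on fewer fragments.

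The highest Y RNA copy, in the intron of ST8SIA6-AS1 (hg19 chromosome 10, 17445507 to 17445619), had 116.3 and 168.5 FPKM with the empty vector and 370.9 and 266.7 with the CRYM vector. Both CRYM libraries were above both empty vector libraries, with means of 142.4 ± 36.9 and 318.8 ± 73.7 (SD, n = 2 each), from 23.7, 38.9, 57.3 and 53.9 fragments. The log2 difference of 1.16 (SE 0.29) did not pass (limma adjusted p = 0.0670). The Y RNA copy in the intron of KLHL12 (chromosome 1, 202884008 to 202884108) had 7.02 and 6.22 FPKM against 55.9 and 42.5, which is 1, 1, 6 and 6 fragments. It rose by 2.71 on the log2 scale (SE 0.17, limma adjusted p = 0.00859). The Y RNA copy in the intron of TOP2A (chromosome 17, 38547484 to 38547590) had 46.5 and 49.0 FPKM against 16.2 and 25.3, from 7, 8, 2 and 4 fragments, and fell by 1.20 on the log2 scale (SE 0.25, limma adjusted p = 0.0488). It did not pass with a pseudocount of 0.1, without the variance trend, with a filter on the mean, with quantile scaling or without the filter (limma adjusted p = 0.0504 to 0.0986). With no library at 0, these 2 were the only Y RNA copies past the threshold.

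The other 13 called Y RNA copies, 9 higher and 4 lower, were listed at 0 throughout one of the groups. None had more than 3 fragments in any library, and 6 had no more than 1. The vault copy (chromosome 17, 33424579 to 33424676), which overlaps an exon of RAD51D, was likewise listed at 0 in both empty vector libraries and at 7.81 and 6.31 FPKM, 1 fragment each, in the CRYM libraries (limma adjusted p = 0.00572). Of the abundant Y RNA copies, RNY4P10 (chromosome 6, 33167378 to 33167472) had 150.6 and 83.7 FPKM against 152.2 and 0, and RNY5P8 (chromosome 13, 103472343 to 103472419) had 0 and 39.3 against 220.6 and 85.9. The Y RNA copy at chromosome 12 (2969115 to 2969199) had 43.0 and 111.5 against 57.4 and 44.04. None of these 3 passed, and in RNY4P10 and the copy on chromosome 12 the groups overlapped.

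The 3 tested 7SK copies were low, and each had both CRYM libraries above both empty vector libraries without passing. The same order was found at 37.0% of all tested loci and at 27.4% of those of at most 331 bp. RN7SKP80 (chromosome 22, 42961054 to 42961336) had 1.47 and 1.59 FPKM against 1.80 and 1.86, RN7SKP150 (chromosome 5, 179272832 to 179273152) 0.973 and 0.801 against 1.49 and 1.41, and RN7SKP16 (chromosome 1, 33802167 to 33802465) 0.796 and 0.598 against 2.08 and 1.05. Their limma adjusted p-values were 0.162, 0.0546 and 0.193. They share 75.9% to 82.5% of their bases with RN7SK in an alignment over their length and hold 3, 1 and 2 GATC words. RN7SKP150 and RN7SKP16 reached the level needed for testing through the CRYM libraries only.

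At the edge of the filter, RN7SL145P (0.660 and 1.00 FPKM against 0.950 and 1.18) and RN7SL80P (0.357 and 0.780 against 1.01 and 1.11) were just inside. RN7SL274P (0.153 and 1.00 against 0.544 and 0.995) and a Metazoa_SRP copy on chromosome 21 (0.465 and 0.888 against 0.995 and 0.987) were just outside.

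Where the loci lie was not part of the rule. A position in GENCODE 29 was found for 88 of the 97 tested Y RNA loci and for 663 of the 782 untested. Of the tested loci, 60.2% (53) lay in an intron of another gene on its strand, 27.3% (24) in an intron on the other strand and 12.5% (11) between genes. Of the untested loci, 27.5% lay in an intron on the same strand, 29.4% in an intron on the other strand and 41.2% between genes. The share of the bases of RNY1, RNY3 or RNY4 that they kept was alike, with a median identity to the closest of 85.8% in tested and 86.3% in untested loci. RNY1 was the closest for 39, RNY3 for 35 and RNY4 for 13 of the tested loci, and RNY5 was not compared. Of the 4 tested 7SK loci, RN7SK lay between genes, RN7SKP16 in an intron on the strand of PHC2, and RN7SKP80 and RN7SKP150 in introns of SERHL2 and MRNIP on the other strand.

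**Figure D5:**
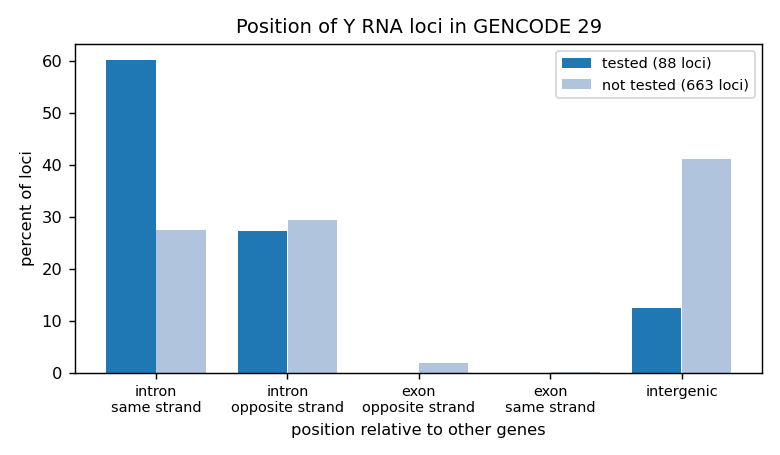
Percent of Y RNA loci in each position relative to other genes in GENCODE 29, for the 88 tested and the 663 untested loci with a position. In an intron on the same strand lay 60.2% of the tested and 27.5% of the untested loci, and between genes 12.5% and 41.2%.

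The wider loci that hold these copies were compared with them directly. Of the 173, 83 lie inside another tested locus in the files (58 Y RNA, 22 SRP RNA and 2 7SK among them), and nearly all of those holding loci have no name there. The holding locus was lower in CRYM cells in 25 cases, higher in 11 and not past the threshold in 47 (limma). Over all tested loci, 17.7% were called lower and 15.7% higher. The copy and its holding locus differed in the same direction in 40 of 83 cases, and the Pearson correlation of their log2 differences was 0.016 (n = 83 pairs, which share the libraries and, in part, reads). Most pairs are Y RNA loci, a group with a median of 1 fragment, so these values cannot tell whether copy and holding locus change together. In the 10 pairs whose copy had at least 10 fragments in every library, 4 had the same direction, with a correlation of 0.153. The TOP2A copy is a case of the same direction: the locus that holds it was also lower, with a log2 difference of -0.50. For the KLHL12 copy the holding locus had a log2 difference of -0.02 and did not pass.

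For SRP RNA, a GENCODE 29 entry at the same place was found for 28 of the 71 tested loci (39.4%) and for 610 of the 769 untested (79.3%). Because fewer than 80% of the loci have a sequence, a description of the tested group by position or sequence is void, and the following holds for the matched loci only. Of the 27 matched copies, RN7SL2 aside, 17 had an identity under 65% to the closest functional SRP RNA, against 50 of 609 untested ones. The threshold of 65% was set after the values were seen.

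Of the proteins that work with these RNAs, the files name few in all libraries, so the pathways can hardly be described. Of 18 proteins of the 7SK particle and P-TEFb, 2 were tested: none was higher and 1 was lower. HEXIM1, the P-TEFb inhibitor that binds 7SK, had 14.7 and 14.9 FPKM with the empty vector and 14.9 and 15.6 with the CRYM vector (limma adjusted p = 0.489). JMJD6, a hydroxylase tied to the release of P-TEFb from 7SK, fell 1.32-fold, from 12.6 and 12.4 to 9.51 and 9.47 FPKM (log2 difference -0.36, SE 0.032, limma adjusted p = 0.0132). The CRYM values of JMJD6 lay clearly below the others, and those of HEXIM1 just above. Of 18 SRP, receptor and translocon proteins, 1 was tested: SEC61B, a subunit of the translocon, had 197.5 and 184.4 against 167.9 and 166.6 FPKM and did not pass (limma adjusted p = 0.0597). Of 32 subunits and factors of RNA polymerase III, 1 was tested: GTF3C6, a subunit of TFIIIC, had 106.8 and 108.0 against 99.98 and 103.6 FPKM and did not pass (limma adjusted p = 0.146). None of 12 Y RNA partners was named in all 4 libraries.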

How the data were processed

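RNA sequencing of 2 empty vector and 2 CRYM vector libraries was analysed. The values are FPKM with an interval and a status per locus, as deposited by the authors, 1 table per library, per the file headers. Per the submitters' processing notes, the tools were Cufflinks 2.2.1, Cuffdiff, Bowtie2 2.2.9 and TopHat2 2.1.1 and the build hg19 (GRCh37), with no roles given. Use of strand and the division of reads that fit several copies are not given in the sources used here.

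Libraries were joined by position, and 52318 loci were listed in all 4. The 10091 loci with the status OK in all 4 that reached 1 FPKM in at least 2 were fitted together with limma 3.58.1 (R 4.3.3) on log2(FPKM + 1), as 2 groups with a variance trend, two-sided, with Benjamini-Hochberg adjustment over all of them at 0.05. That scale understates changes of low loci. Each fold is a ratio of mean FPKM. The fit was tested on simulated data. The absolute depth is unknown. Implied fragments cover counting error only, and relative depth was read from the FPKM of 1 fragment at narrow loci.

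The loci, the lists of genes and the settings were chosen with earlier results of these data known. Named loci are CRYM, members with the symbol of a functional gene, the 4 highest per group, up to 4 of the largest rises and falls per group past the threshold with no library at 0 and no overlap, those at the edge of the filter, and every tested gene of the pathway lists. Sequences and positions come from GENCODE 29 (GRCh38), matched by identifier or symbol for 121 of the 173 loci. A match on another chromosome or over 3 Mb away was discarded. Global alignments used Biopython 1.88. SRP RNA sequences are not reported here. Other steps used matplotlib 3.10.9, numpy 2.4.6 and pandas 2.3.3 in Python 3.11.15.

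Alternatives covered the pseudocount, the filter, 2 scalings, the variance trend, the replicate number as a block and each library left out. Restricting the counts to loci with at least 10 fragments was added after the data were seen.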

Additional observations from a re-analysis of the deposited data

How the results depend on the processing

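With 2 libraries a group, the calls are fragile. Without any 1 library in turn, limma called 0 loci and 0 of the 173 in either direction, with 3627 to 3815 loci and 34 to 48 of the 173 at an unadjusted p under 0.05, and the CRYM log2 difference was 5.0 to 5.15. The replicate block also gave 0 calls in either direction, over all loci (3820 at an unadjusted p under 0.05) and over the 173 (43 at an unadjusted p under 0.05), and a CRYM log2 difference of 5.07 (limma adjusted p = 0.0569). Over 10091 loci, libraries of the same replicate number deviated together with a correlation of 0.036. Such a value from 2 libraries a group cannot tell whether the numbers pair libraries. Without the filter, limma called 788 of 26482 loci higher and 1083 lower, and 19 of 618 misc_RNA loci higher and 10 lower. With the same total FPKM in every library it called 301 loci higher and 6303 lower, 12 of the 173 higher and 12 lower, and the log2 difference of RN7SL212P was -0.021. Those totals rest mostly on loci outside the test and were higher in both CRYM libraries. Of the 33 loci with at least 10 fragments in every library, 2 were higher and 1 lower in the main fit. Of the 24 calls, 23 remained with a pseudocount of 0.1, 23 with 5, 20 of 23 with a mean FPKM of at least 1, 19 with quantile scaling, 18 with the same total, 16 without the filter and 23 without the variance trend. The cause of these changes was not tested. In 69 of the 97 Y RNA loci no library had more than 3 fragments, which limits what their levels can show.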
